A study of Homo sapiens with 6 samples.

Results

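Genes of polyamine metabolism were examined in DU145 cells, a human prostate cancer cell line from a brain metastasis that grows without androgen, after treatment with taraxasterol (TAX), a plant triterpene. The set holds the 10 genes ODC1, AMD1, SRM, SMS, SAT1, SMOX, OAZ1, OAZ2, AZIN1 and MTAP, taken by gene symbol from the 23062 identifiers of the deposited tables. All 10 were found and all 10 passed the filter on low values, together with 12359 genes in all. RNA of wild-type DU145 cells was sequenced in 6 libraries, 3 kept in medium (control) and 3 treated with 56 µM TAX, the half-inhibitory dose of the line, for 48 h. TAX had been dissolved in DMSO, and whether the control medium held DMSO is not given in the sources used here, so solvent and TAX cannot be told apart. Both groups come from 1 cell line, and the labels do not say whether the 3 samples of a group were grown apart (the study's methods say in general that experiments were repeated), so errors and p-values measure only the spread between these samples, which may be technical. The values are taken as FPKM, fragments per kilobase of gene scaled to the mapped fragments of a library. The unit is not given in the sources used here and was read from the values. If it holds, values can be set side by side between genes of different length.

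Polyamines are small positively charged molecules that bind RNA and DNA and are needed for growth. Ornithine decarboxylase (ODC1) makes putrescine from ornithine, S-adenosylmethionine decarboxylase (AMD1) makes the aminopropyl donor, and the synthases SRM and SMS add it to form spermidine and spermine. SAT1 acetylates spermidine and spermine for export or breakdown, SMOX oxidises spermine back to spermidine, antizymes (OAZ1, OAZ2) bind ODC and send it to the proteasome, antizyme inhibitor (AZIN1) holds antizymes back, and MTAP recycles the methylthioadenosine that both synthases release. The prostate is known for its high polyamine content, and ODC1 is a classic target gene of the transcription factor MYC.

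Antizyme RNA is read in an unusual way. Polyamines make ribosomes shift the reading frame at a stop codon inside the coding sequence, so antizyme protein depends on this site as well as on RNA level. The site is shown because the antizyme RNAs stood close to their control level below. It was found in the GENCODE 29 transcripts (GRCh38), at chr19:2271429-2271463 on the plus strand for OAZ1 and at chr15:64691495-64691529 on the minus strand for OAZ2. Capitals mark the last sense codon and the stop codon of the first frame.
OAZ1: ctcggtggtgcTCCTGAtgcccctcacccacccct
OAZ2: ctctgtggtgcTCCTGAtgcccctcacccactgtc
Of these 35 bases 30 were the same in both genes, and the 20 bases from the first capital on had no difference. The site stood in full in 7 of 11 OAZ1 and 5 of 9 OAZ2 transcripts, and 2 and 3 others carried it with 1 base left out. For OAZ1 those in full were annotated as retained introns, apart from 1 protein-coding transcript. For OAZ2 they were annotated as processed transcripts or retained introns, and none as protein-coding. All transcripts with 1 base left out were annotated as protein-coding. Whether cells hold RNA that lacks this base was not tested.

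Start regions were read where a promoter sequence was at hand, because MYC binds the E-box CACGTG. RefSeq promoters (GRCh38.p14) were matched by symbol for 8 of the 10 genes, ODC1, AMD1, SRM, SMS, SAT1, OAZ1, OAZ2 and MTAP, in 11 windows. The 250 bases before each start were searched on both strands for CACGTG, for the GC box GGGCGG and for CCAAT. Of all 35116 promoters of that length, 6.34% held CACGTG, 42.6% held GGGCGG and 32.0% held CCAAT. Among the 8 genes, CACGTG was found in SRM and in 1 of the 2 start regions of ODC1. The 2 ODC1 sites lie 34 bases apart on the minus strand, at chr2:10448036-10448041 and chr2:10448002-10448007, the first 29 bases before a RefSeq start and the second just behind it. The second is thus outside the 250 bases searched. Bases behind the start were read for CACGTG only in ODC1 and SRM, not in the other genes or in the share over all promoters. In GENCODE 29 both ODC1 sites lie in an intron of 2 of the 4 ODC1 transcripts and outside the other 2. They are given with 9 bases on each side and the E-box in capitals.
ODC1 first E-box: ggccccgggCACGTGtgcggcgcg
ODC1 second E-box: ctgcggagaCACGTGgtcgccgag
The SRM promoter, at chr1:11060019-11060268 on the minus strand, held 1 CACGTG, 6 GGGCGG and 2 CCAAT. That of SAT1, at chrX:23782923-23783172 on the plus strand, held no CACGTG, no GGGCGG and 2 CCAAT. Both are shown to set a synthesis gene beside the breakdown gene of opposite direction. They do not stand for the other genes. SMS and MTAP, also higher after TAX, held no CACGTG. AMD1, OAZ1 and OAZ2, whose groups overlapped, held GGGCGG. Capitals mark CACGTG and GGGCGG in either orientation, and the E-box shares no base with a GC box.
SRM: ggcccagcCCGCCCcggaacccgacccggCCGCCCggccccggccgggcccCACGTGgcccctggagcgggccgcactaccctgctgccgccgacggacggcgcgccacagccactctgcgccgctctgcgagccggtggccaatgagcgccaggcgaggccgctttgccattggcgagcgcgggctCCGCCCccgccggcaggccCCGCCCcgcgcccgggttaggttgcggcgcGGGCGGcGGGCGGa
SAT1: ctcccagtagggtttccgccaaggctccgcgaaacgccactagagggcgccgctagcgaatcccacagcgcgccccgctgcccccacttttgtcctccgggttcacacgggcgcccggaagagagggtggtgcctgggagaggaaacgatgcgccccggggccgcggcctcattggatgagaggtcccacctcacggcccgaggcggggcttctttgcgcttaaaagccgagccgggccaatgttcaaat
A match of letters says nothing about binding, and no binding was measured here.

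The labelled cell type was checked against marker genes. All 6 epithelial markers (EPCAM, CDH1, KRT8, KRT18, KRT19 and KRT7) had at least 1 FPKM in every library, with a sum of 567 to 733 FPKM in control and 724 to 770 FPKM in TAX libraries. The androgen-regulated prostate markers KLK3 and KLK2 were listed at 0 in every library. The 5 immune markers summed to at most 0.589 FPKM, the 4 endothelial markers to at most 0.154 FPKM and the 5 fibroblast markers to at most 2.11 FPKM, nearly all from COL1A1. Summed FPKM per library was 322483 to 363724, read counts were not given, and depth is therefore unknown. Pearson's r of log2(FPKM + 1) between libraries of 1 group was 0.991 to 0.995. Control replicate 3 lay low in general. It had the lowest summed FPKM, its median over tested genes was 8.74 FPKM against 9.84 to 9.99 FPKM in the other 5 libraries, and it held the lowest control value of 72.3% of tested genes and of 9 of the 10 polyamine genes, AZIN1 being the exception.

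In untreated cells OAZ1 and ODC1 were the most abundant RNAs of the set. OAZ1 had 414 ± 42.1 FPKM (SD, n = 3) and ranked 76 among all identifiers, and ODC1 had 148 ± 8.43 FPKM (SD, n = 3) and ranked 272. SAT1 followed with 85.0 ± 22.2 FPKM, AZIN1 with 58.1 ± 3.39 FPKM, SMS with 52.9 ± 1.13 FPKM and OAZ2 with 51.4 ± 1.33 FPKM (SD, n = 3 each). Below them stood SMOX with 36.5 ± 5.12 FPKM, AMD1 with 26.6 ± 2.71 FPKM, SRM with 23.3 ± 1.80 FPKM and MTAP with 8.62 ± 0.295 FPKM (SD, n = 3 each). The level of OAZ1 was 48.0 times that of MTAP, which itself sat near the middle of the tested genes, at percentile 46.9. Neighbours in this order were apart in every control library except for SMS and OAZ2 and for AMD1 and SRM, whose ranges overlapped. After TAX the order changed at SAT1, which came to overlap AZIN1 and SMS, while OAZ1 and ODC1 kept the first and the second place and ODC1 moved to rank 177.

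**Figure D1:**
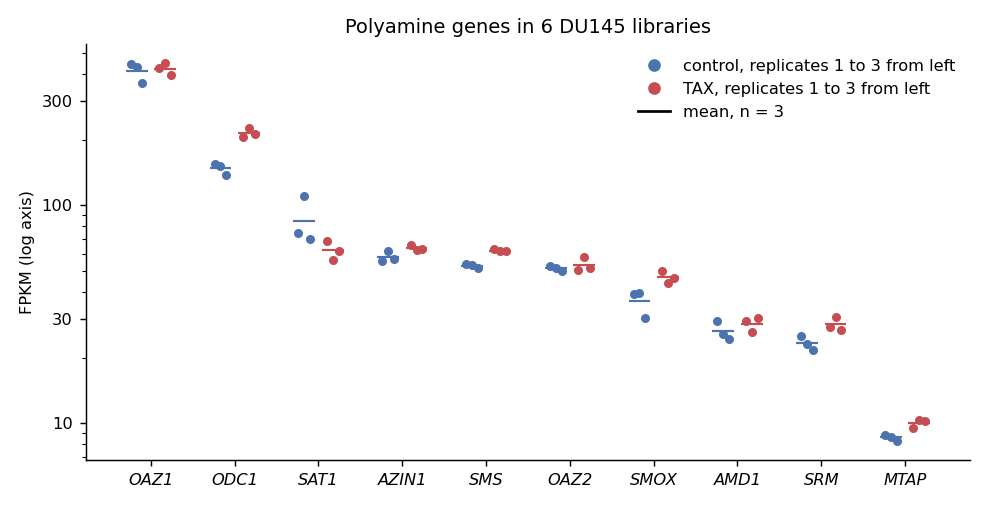
FPKM of the 10 polyamine genes (log axis) in 3 control (blue) and 3 TAX (red) libraries, with a bar at each mean, ordered by control level. The ODC1 points of the TAX libraries, 207 to 226 FPKM, stand above the control points, 139 to 154 FPKM, while the OAZ1 points of both groups mix.

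The comparison of TAX with control asked which steps of the pathway differed in RNA level. The set was selected on the adjusted p of ODC1 in this same comparison, with the others added as members of its pathway, so the differences of all 10 are given as a description. ODC1, SRM and SMS, which make polyamines, and SMOX, AZIN1 and MTAP had TAX values that all exceeded their control values, SAT1 had TAX values all below its control values, and AMD1, OAZ1 and OAZ2 overlapped. By limma with Benjamini-Hochberg adjustment over all tested genes, 1 of the 10 genes, ODC1, had an adjusted p under 0.05, where 0.477% of all tested genes did. These were 39 higher (0.316%) and 20 lower genes (0.162%), or 47 and 48 after quantile normalization, 46 and 50 after median centring. The set was called higher in 1 and lower in 0 cases. Groups without overlap, higher in TAX, were found for 6 of the 10 genes and for 14.6% of all tested genes. Groups without overlap, lower in TAX, were found for 1 gene of the set and for 3.34% of all tested genes, which makes 7 of 10 against 17.9% in either direction. The median log2 fold change was 0.17 over the set and 0.054 over all tested genes. As FPKM is relative to all RNA of a library, less RNA per cell and fewer expressing cells cannot be told apart.

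Among the synthesis genes ODC1 had the largest difference. It lies on chromosome 2 from 10439968 to 10448504 (GENCODE 29, GRCh38) and encodes the enzyme of the first step. Control replicates 1, 2 and 3 held 154, 152 and 139 FPKM of ODC1, against 207, 226 and 212 FPKM after TAX, in the replicate order used for all genes below. The lowest TAX library thus stood clear of the highest control library. The mean went from 148 ± 8.43 to 215 ± 9.68 FPKM (SD, n = 3 each), a log2 fold change of 0.53 with a standard error of 0.086 (limma), or 1.45-fold. By size of increase it ranked 50 of 12359 tested genes. GENCODE lists a processed pseudogene of it, ODCP, and a small nucleolar RNA gene within it, SNORA80B, neither of which has a value in the tables used here.

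Both aminopropyl synthases lay higher in the TAX libraries by less. SRM, on chromosome 1 from 11054584 to 11060024, makes spermidine. It had 25.2, 23.0 and 21.7 FPKM in the control and 27.8, 30.9 and 26.8 FPKM in the TAX libraries. Its log2 fold change was 0.28 with a standard error of 0.089. SMS, on chromosome X from 21940573 to 21994835, makes spermine and was the most even gene of the set. It had 53.9, 53.0 and 51.7 FPKM in the control and 62.8, 61.5 and 61.7 FPKM in the TAX libraries, without overlap. The coefficient of variation of SMS was 2.13% in control and 1.17% in TAX libraries, against medians of 9.83% and 6.0% over all tested genes. Its log2 fold change was 0.23 with a standard error of 0.074.

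AMD1, on chromosome 6 from 110874770 to 110895713, had groups that overlapped. It had 29.6, 25.7 and 24.4 FPKM in the control and 29.3, 26.2 and 30.5 FPKM in the TAX libraries, so control replicate 1 lay among the TAX values. The log2 fold change was 0.11 (95% interval -0.10 to 0.32, limma). This interval includes the estimates of SRM, 0.28, and SMS, 0.23, so a lack of change is not shown. Without control replicate 1 the log2 fold change of AMD1 was 0.185 and the groups did not overlap. Processed pseudogenes are annotated for AMD1 (AMD1P1 to AMD1P4), SRM (SRMP1 and SRMP2) and MTAP (MTAPP1 and MTAPP2), and how reads shared with them were assigned is not given in the sources used here.

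The breakdown genes lay in opposite directions. SAT1, on chromosome X from 23783173 to 23786226, encodes the acetyltransferase that starts polyamine breakdown and is known to respond to polyamine excess and to stress. It had 74.4, 111 and 70.1 FPKM in the control and 68.9, 56.4 and 62.0 FPKM in the TAX libraries. The groups did not overlap, but TAX replicate 1 lay close below control replicate 3. Control replicate 2 decided the size of this difference, as the log2 fold change was -0.42 with a standard error of 0.155 and -0.21 without that library. The coefficient of variation of SAT1 in control, 26.1%, was above the 90th percentile of all tested genes, 18.5%. SMOX, on chromosome 20 from 4120980 to 4187747, encodes spermine oxidase. It had 39.3, 39.6 and 30.6 FPKM in the control and 49.9, 44.3 and 46.3 FPKM in the TAX libraries. Its log2 fold change was 0.36 with a standard error of 0.108, and 0.24 without the low control replicate 3.

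The 3 regulators of ODC protein were both antizymes and the antizyme inhibitor. OAZ1, on chromosome 19 from 2269509 to 2273490, had 445, 431 and 366 FPKM in the control and 425, 450 and 398 FPKM in the TAX libraries. Both groups covered nearly the same range. OAZ2, on chromosome 15 from 64687573 to 64703281, had 52.8, 51.4 and 50.1 FPKM in the control and 50.7, 58.1 and 51.8 FPKM in the TAX libraries. The log2 fold change was 0.039 for OAZ1 (95% interval -0.19 to 0.27, limma) and 0.054 for OAZ2 (95% interval -0.13 to 0.24), and both turned negative after quantile normalization, after median centring and without TAX replicate 2, OAZ1 also without control replicate 3. AC005258.1, which overlaps OAZ1 on the same strand, was listed at 0 in all 6 libraries. AZIN1, on chromosome 8 from 102826357 to 102893864, had 55.4, 61.9 and 57.0 FPKM in the control and 65.5, 62.5 and 63.0 FPKM in the TAX libraries. Control replicate 2 and TAX replicate 2 of AZIN1 nearly touched, and the groups overlapped after quantile normalization, median centring and rescaling to TPM. The log2 fold change of AZIN1 was 0.13 (95% interval -0.045 to 0.31, limma).

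MTAP, on chromosome 9 from 21802543 to 21937651, is the salvage enzyme often lost from tumor genomes together with its neighbour CDKN2A. Its RNA was present in DU145 cells, with 8.88, 8.68 and 8.30 FPKM in the control and 9.55, 10.4 and 10.2 FPKM in the TAX libraries. Each TAX value lay above each control value. The log2 fold change was 0.20 with a standard error of 0.077. AL359922.1, a gene that overlaps MTAP on the same strand, had 0.142 to 0.431 FPKM.

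**Figure D2:**
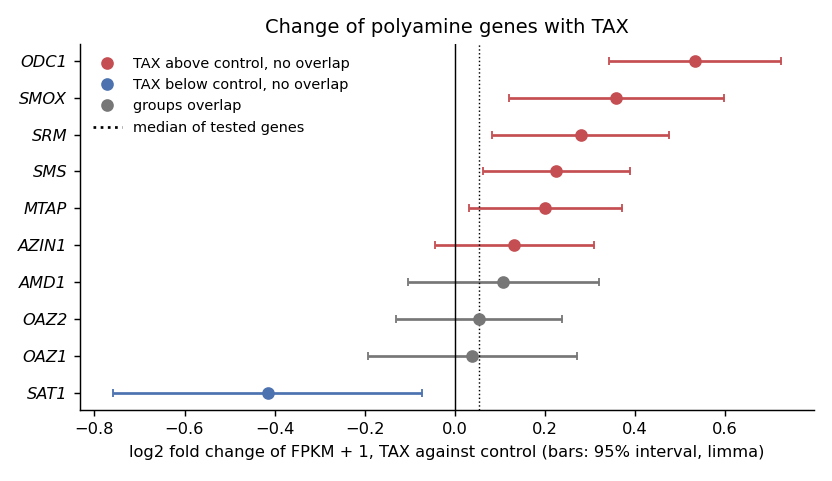
Log2 fold change of FPKM + 1 with TAX for the 10 polyamine genes, with 95% intervals from limma. The dotted line marks the median of all tested genes, 0.054, with ODC1 at 0.53 farthest above it and SAT1 at -0.42 below it.

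Ratios between genes of 1 library do not depend on how the libraries were scaled. All but that of SRM to SMS contain ODC1, on which the set was selected. They therefore restate its difference in part and are no added evidence. The log2 ratio of ODC1 to OAZ1 differed by 0.50, against a log2 fold change of 0.53 for ODC1 alone. Per library, the log2 ratio of ODC1 to its inhibitor OAZ1 was -1.53, -1.51 and -1.40 in the control and -1.04, -0.998 and -0.91 in the TAX libraries. ODC1 RNA thus stood at 0.359 of OAZ1 RNA in control cells and at 0.506 after TAX, geometric means of 3 libraries each, without overlap. The ratio of ODC1 to AZIN1 went from 2.55 to 3.37, also without overlap. The log2 ratio of ODC1 to SAT1 was 1.05, 0.46 and 0.98 in the control and 1.59, 2.00 and 1.77 in the TAX libraries, a 1.94-fold higher ratio. SMOX, the other breakdown gene, had higher FPKM after TAX, and its ratio to ODC1 was not computed. Without control replicate 2, the library with high SAT1, the difference of this log2 ratio was 0.77 instead of 0.96. The ratio of AMD1 to ODC1, with ODC1 as the denominator, went from 0.179 to 0.133 without overlap. The log2 ratio of SRM to SMS was -1.19 ± 0.081 in control and -1.12 ± 0.114 in TAX libraries (SD, n = 3 each), and these groups overlapped.

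**Figure D3:**
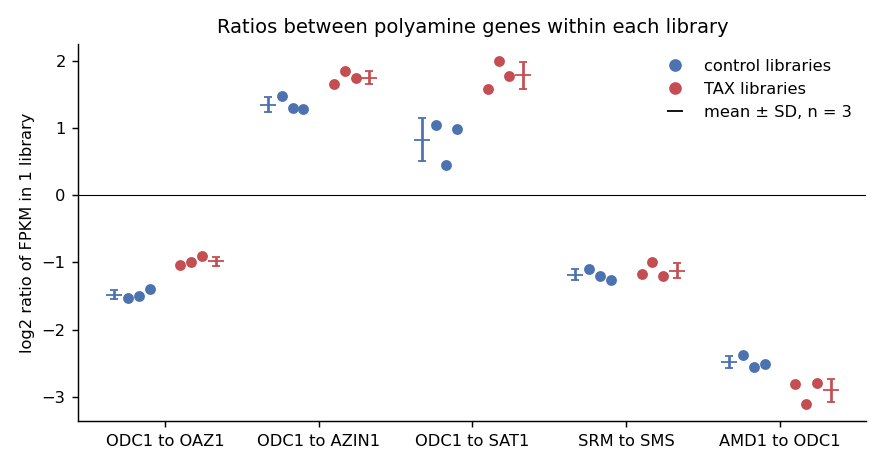
Log2 ratio of FPKM between 2 polyamine genes within each library, with points for 3 control (blue) and 3 TAX (red) libraries and the mean ± SD beside them. ODC1, on which the set was selected, stands higher against OAZ1, AZIN1 and SAT1 in each TAX library. SRM to SMS, the ratio without ODC1, overlaps.

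Genes around the pathway were counted in 5 lists of 43 genes, 32 of which passed the filter. By limma 0 of the 32 had an adjusted p under 0.05 in either direction, and 1 had an unadjusted p under 0.05, as 10.1% of all tested genes did (7.73% higher and 2.41% lower). That gene was ENOPH1, an enzyme of methionine salvage behind MTAP, at 15.6 ± 1.47 FPKM before and 18.1 ± 0.759 FPKM after TAX (SD, n = 3 each; adjusted p = 0.469, limma). Without overlap, 6 of the 32 were higher and 0 lower, where 14.6% and 3.34% of all tested genes were. Of methionine salvage and S-adenosylmethionine synthesis 7 of 8 genes were tested, and their median log2 fold change was 0.078. Of the hypusine pathway, in which spermidine is used to modify the translation factor EIF5A, 4 of 4 genes were tested, with a median of 0.13. EIF5A itself, named after its values were seen, had 436, 435 and 399 FPKM in the control and 481, 503 and 473 FPKM in the TAX libraries (adjusted p = 0.492, limma). Of the transport list 6 of 9 genes were tested, with a median of 0.12. Ornithine supply and further polyamine enzymes had 5 of 10 genes tested and a median of 0.030. The arginase ARG1, which yields ornithine in liver, had at most 0.241 FPKM, and ARG2, the other listed arginase, had 2.76 to 4.18 FPKM. OAT, another enzyme with ornithine as substrate or product, had 68.0 to 77.2 FPKM. These genes were named after their values were seen.

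**Figure D4:**
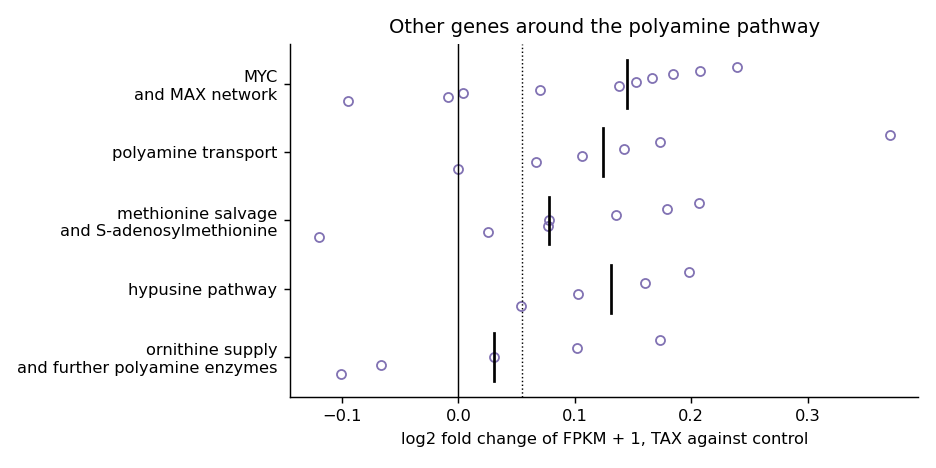
Log2 fold change of FPKM + 1 with TAX for the 32 tested genes of 5 lists around the polyamine pathway, 1 circle a gene, with a bar at each list's median. The dotted line is the median of all tested genes, 0.054, and list medians lie between 0.030 and 0.14.

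MYC and its partners were looked at because ODC1 is a known MYC target. MYC had 30.7, 38.5 and 25.2 FPKM in the control and 40.0, 34.0 and 36.4 FPKM in the TAX libraries. Control replicate 2 lay among the TAX values, and the log2 fold change of 0.24 had a standard error of 0.135 (adjusted p = 0.566, limma). MAX, the dimer partner of MYC, had 16.01, 17.4 and 17.5 FPKM in the control and 18.8, 19.5 and 18.1 FPKM in the TAX libraries (adjusted p = 0.568, limma). Of 12 genes of the network 10 were tested, and the median was 0.14.

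The genes whose log2(FPKM + 1) followed ODC1 most closely over the 6 libraries were MYEOV, IL24, FRMD6, SPHK1 and AEN, with Pearson's r of 0.998, 0.997, 0.996, 0.996 and 0.995. These values include the difference between the groups, and all 6 points share the scaling of their library. MYEOV stood at 8.96 ± 0.613 FPKM before and 14.8 ± 1.13 FPKM after TAX, and IL24, a cytokine gene, had 8.13 ± 0.954 FPKM and 14.0 ± 1.14 FPKM (SD, n = 3 each). SPHK1, which makes sphingosine 1-phosphate, had 3.76 ± 0.246 FPKM and 5.01 ± 0.234 FPKM. The adjusted p by limma was 0.0114 for MYEOV and 0.0136 for IL24. It was 0.224 for FRMD6, 0.145 for SPHK1 and 0.0681 for AEN. As these genes were picked for likeness to ODC1, their differences are no added evidence. Within the set, r with ODC1 was 0.977 for SMS, 0.973 for MTAP, 0.932 for SRM, 0.857 for SMOX, 0.755 for AZIN1, 0.54 for OAZ2, 0.486 for AMD1, 0.379 for OAZ1 and -0.646 for SAT1. With each group mean subtracted, the 5 genes most like ODC1 were FLOT2, PPP2R5D, BX255925.3, SMIM30 and LAP3, each with r of 0.998 over 6 libraries. Of these, FLOT2 was the nearest, at 59.0 ± 4.77 FPKM before and 61.5 ± 3.84 FPKM after TAX (SD, n = 3 each). Its control replicates held 62.2, 61.4 and 53.5 FPKM, lowest in replicate 3 like 72.3% of tested genes. The 5 genes were picked as the highest of all tested genes, from few values with each group mean taken out. An r of this size therefore says little about a link to ODC1.

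The differences were also computed under 14 alternatives, 8 of them other settings and 6 with 1 library left out. The log2 fold change of ODC1 lay between 0.46 and 0.56, but its adjusted p was under 0.05 in 6 of the 14, and in 0 of the 6 with a library removed. AMD1, SRM, SMS, SMOX, AZIN1 and MTAP stayed positive and SAT1 negative in all 14. None of these genes had an adjusted p under 0.05 in any of them. In the fit as reported, 69.1% of all tested genes had a positive log2 fold change. The alternatives reuse the same libraries, so a constant sign is no added evidence.

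**Figure D5:**
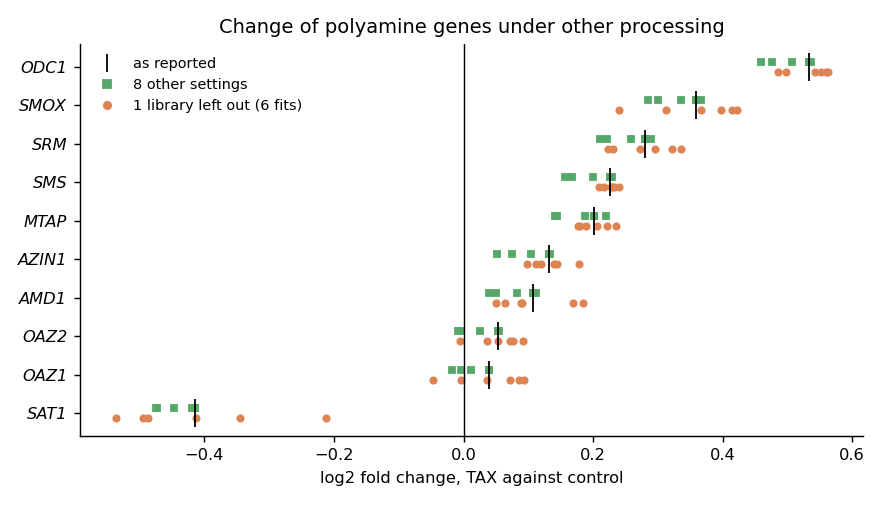
Log2 fold change with TAX of the 10 polyamine genes as reported (black bar), under 8 other settings (green squares) and with 1 library left out (orange circles). The values of ODC1 stay between 0.46 and 0.56, those of SAT1 range from -0.54 to -0.21, and those of OAZ1 and OAZ2 fall on both sides of 0.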

How the data were processed

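RNA-seq libraries of 3 control and 3 TAX-treated samples were compared. For each of them a separate table of gene values, taken as FPKM, was deposited by the authors. The submitters' processing notes name HISAT2 2.2.0, StringTie 2.1.2 and GRCh38. The unit is not given in the sources used here and was read from the values, which are decimals with differing sums, and annotation, strand setting and filters are not given either. Read counts were not analysed here, so depth and counting error are unknown.

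A gene was tested if 3 or more of the 6 libraries reached 1 FPKM. On log2(FPKM + 1), which understates changes of low genes, a linear model of the 2 groups was fitted (R 4.3.3, limma 3.58.1, trended empirical Bayes variances), and p-values were adjusted by Benjamini-Hochberg over all tested genes. Alternatives were another pseudocount, other filters, quantile normalization, median centring, rescaling to TPM, untrended variances, a replicate block and leaving out each library. The 10 genes and all lists were chosen with earlier results of these data known. Named were the 10 genes, MYC, MAX, list genes with an adjusted or else unadjusted p under 0.05, at most 4 a list, and the 5 genes most like ODC1 by either measure. The fit was tested on simulated data with independent values for each gene and library. These lack a shift of a whole library, as in control replicate 3, so that test cannot show that the calls hold here. Positions and transcripts come from GENCODE 29 (GRCh38), promoters from RefSeq.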

Additional observations from a re-analysis of the deposited data

How the results depend on the processing

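ODC1 lost its adjusted p under 0.05 with no filter on low values, with the replicate block and without each library in turn, so 0 of the 10 polyamine genes were called there (0 to 0 over the fits without 1 library), with 1854, 971 and 779 to 1644 genes at an unadjusted p under 0.05. Over all tested genes, called higher and lower were 25 and 12 with the filter at 0.1 FPKM, 0 and 1 with no filter, 13 and 13 with the replicate block, and 9 to 28 and 8 to 15 without 1 library. Quantile normalization gave 48 lower and median centring 50. The labels do not say that a replicate number marks a shared batch, and deviations of samples with the same number correlated at -0.117, -0.333 and -0.171.

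Log2 fold changes of OAZ1 ranged from -0.0466 to 0.0935 without 1 library. They reversed to -0.0046 under quantile normalization, to -0.018 under median centring, to -0.0466 without control replicate 3 and to -0.0044 without TAX replicate 2, and those of OAZ2 to -0.0089, -0.0040 and -0.0060 under the first, second and last of these, with 0.0913 as the highest value without 1 library. List medians moved under median centring to -0.028 for ornithine supply, 0.074 for the hypusine pathway and 0.066 for transport. Without 1 library the medians ranged from -0.0501 to 0.101 for ornithine supply, 0.0558 to 0.174 for hypusine, 0.065 to 0.140 for methionine salvage, 0.105 to 0.152 for transport and 0.0695 to 0.172 for MYC and MAX. The median of all tested genes was 0.0055 without control replicate 3. The cause of these changes was not tested. Differences of genes near 0 FPKM cannot be judged by counting error.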
